A study of Mus musculus with 9 samples.

Results

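The leptin receptor gene Lepr and 8 genes of the adipocyte lineage (Adipoq, Pparg, Cebpa, Lpl, Fabp4, Dgat2, Plin1 and Cd36) were followed in stromal cells sorted from mouse bone marrow. The genes were chosen by symbol. All 9 were found among the 19938 genes that the array annotation pairs with at least 1 unambiguous row, and each was measured by 1 row. They were read as 5 early adipogenic genes (Lepr, Pparg, Cebpa, Adipoq and Lpl) and 4 lipid-storage genes (Fabp4, Dgat2, Plin1 and Cd36).

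RNA was hybridised to 9 Affymetrix Mouse Gene ST 1.0 arrays, all from C57Bl/6J mice. The YFP-positive group (3 arrays) held CD45-Lin-YFP+CD54+BP1+ cells of IL7-Cre Transgenic/Rosa-eYFP hetero mice, in which YFP marks cells with present or past activity of a Cre driven by Il7. The YFP-negative group (1 array, 2300 cells) held cells of that gate and genotype that lacked YFP. The wild-type group (3 arrays) held CD45-Lin-CD54+BP1+ cells of mice without the transgenes, and the total marrow group (2 arrays, 10 ng of RNA each) held unsorted marrow of wild-type mice. The sorted mice were 6 to 12 weeks old, and the total marrow came from young adults. The replicate sorts held 1800 to 10000 cells. The labels do not say whether replicates came from separate animals, so the p-values measure the spread between these arrays, which may be technical.

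In adipogenesis, the nuclear receptor encoded by Pparg and the transcription factor encoded by Cebpa raise each other's expression and switch on the genes of the fat cell. Adiponectin, the product of Adipoq, is a hormone secreted by fat cells, whereas Plin1, Dgat2 and Cd36 serve the uptake and storage of lipid in droplets. In the marrow, Lepr is a known marker of perivascular stromal cells, the main source of Cxcl12 and stem cell factor and a source of fat cells and osteoblasts.

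The promoter windows of 4 genes are shown because they span both groups: Pparg and Adipoq, whose signals were far above total marrow in sorted cells, and Plin1 and Cd36, whose signals were not. RefSeq promoter windows (assembly GRCm38.p6, 250 bases before to 50 bases after an annotated start) were matched for 6 of the 9 genes, in 9 windows. They were read 5′ to 3′ on the strand of the gene. Capitals mark matches, on either strand, to TTGCNNAA (the core recognised by C/EBP proteins), CCAAT (a box bound by NF-Y) and AGGTCA (a nuclear receptor half-site). A further motif, TATAAA, was searched on either strand and is not capitalised. The windows are Pparg at chr6:115421816-115422115 (plus strand, the third of its 3 windows), Adipoq at chr16:23146286-23146585 (plus strand), Plin1 at chr7:79732727-79733026 (minus strand) and Cd36 at chr5:17835847-17836146 (minus strand).
Pparg: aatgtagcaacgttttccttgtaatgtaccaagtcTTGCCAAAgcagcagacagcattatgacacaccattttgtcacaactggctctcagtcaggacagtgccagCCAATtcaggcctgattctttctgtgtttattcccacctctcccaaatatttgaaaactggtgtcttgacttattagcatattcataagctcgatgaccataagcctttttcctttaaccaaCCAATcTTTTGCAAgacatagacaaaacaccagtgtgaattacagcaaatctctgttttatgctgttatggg
Adipoq: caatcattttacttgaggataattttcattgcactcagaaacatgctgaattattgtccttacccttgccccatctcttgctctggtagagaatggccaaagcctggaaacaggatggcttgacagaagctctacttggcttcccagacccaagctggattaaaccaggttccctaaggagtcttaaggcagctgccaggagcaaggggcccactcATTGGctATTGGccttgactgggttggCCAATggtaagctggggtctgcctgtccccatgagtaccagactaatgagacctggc
Plin1: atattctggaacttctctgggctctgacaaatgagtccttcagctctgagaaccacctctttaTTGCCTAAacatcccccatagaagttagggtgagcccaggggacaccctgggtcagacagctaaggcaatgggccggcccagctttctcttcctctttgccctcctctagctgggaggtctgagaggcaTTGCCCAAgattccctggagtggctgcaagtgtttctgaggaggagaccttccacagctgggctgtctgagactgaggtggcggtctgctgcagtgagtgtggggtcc
Cd36: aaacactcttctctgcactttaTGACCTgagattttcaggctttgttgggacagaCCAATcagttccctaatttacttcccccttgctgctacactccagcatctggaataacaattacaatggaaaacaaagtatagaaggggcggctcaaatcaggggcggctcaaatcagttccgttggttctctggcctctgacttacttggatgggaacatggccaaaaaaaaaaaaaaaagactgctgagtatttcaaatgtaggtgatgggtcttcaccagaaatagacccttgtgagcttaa

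The third Pparg window held 2 C/EBP matches, which begin at −215 and −16 from the start, and the Plin1 window also held 2, at −187 and −58. At least 1 such match stood in 10.8% of all 32851 RefSeq windows of this length and at least 2 in 0.941%. No C/EBP match lay in the Adipoq or the Cd36 window. The Adipoq window held 3 CCAAT matches between −34 and −7, a number reached by 3.37% of windows, and the Cd36 window held 1 half-site match at −228, as did 16.3% of windows. These matches describe letters in the windows and were not measured as binding sites. The first and second Pparg windows held no C/EBP match. Each held 1 half-site, at −28 and −9, respectively. The second also held TATAAA at −29 and CCAAT at −83, both on the strand opposite to the gene. The first Lepr window held CCAAT at −195 and the second 1 C/EBP match at +20. The Cebpa window held TATAAA at −30, on the strand of the gene.

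**Figure D1:**
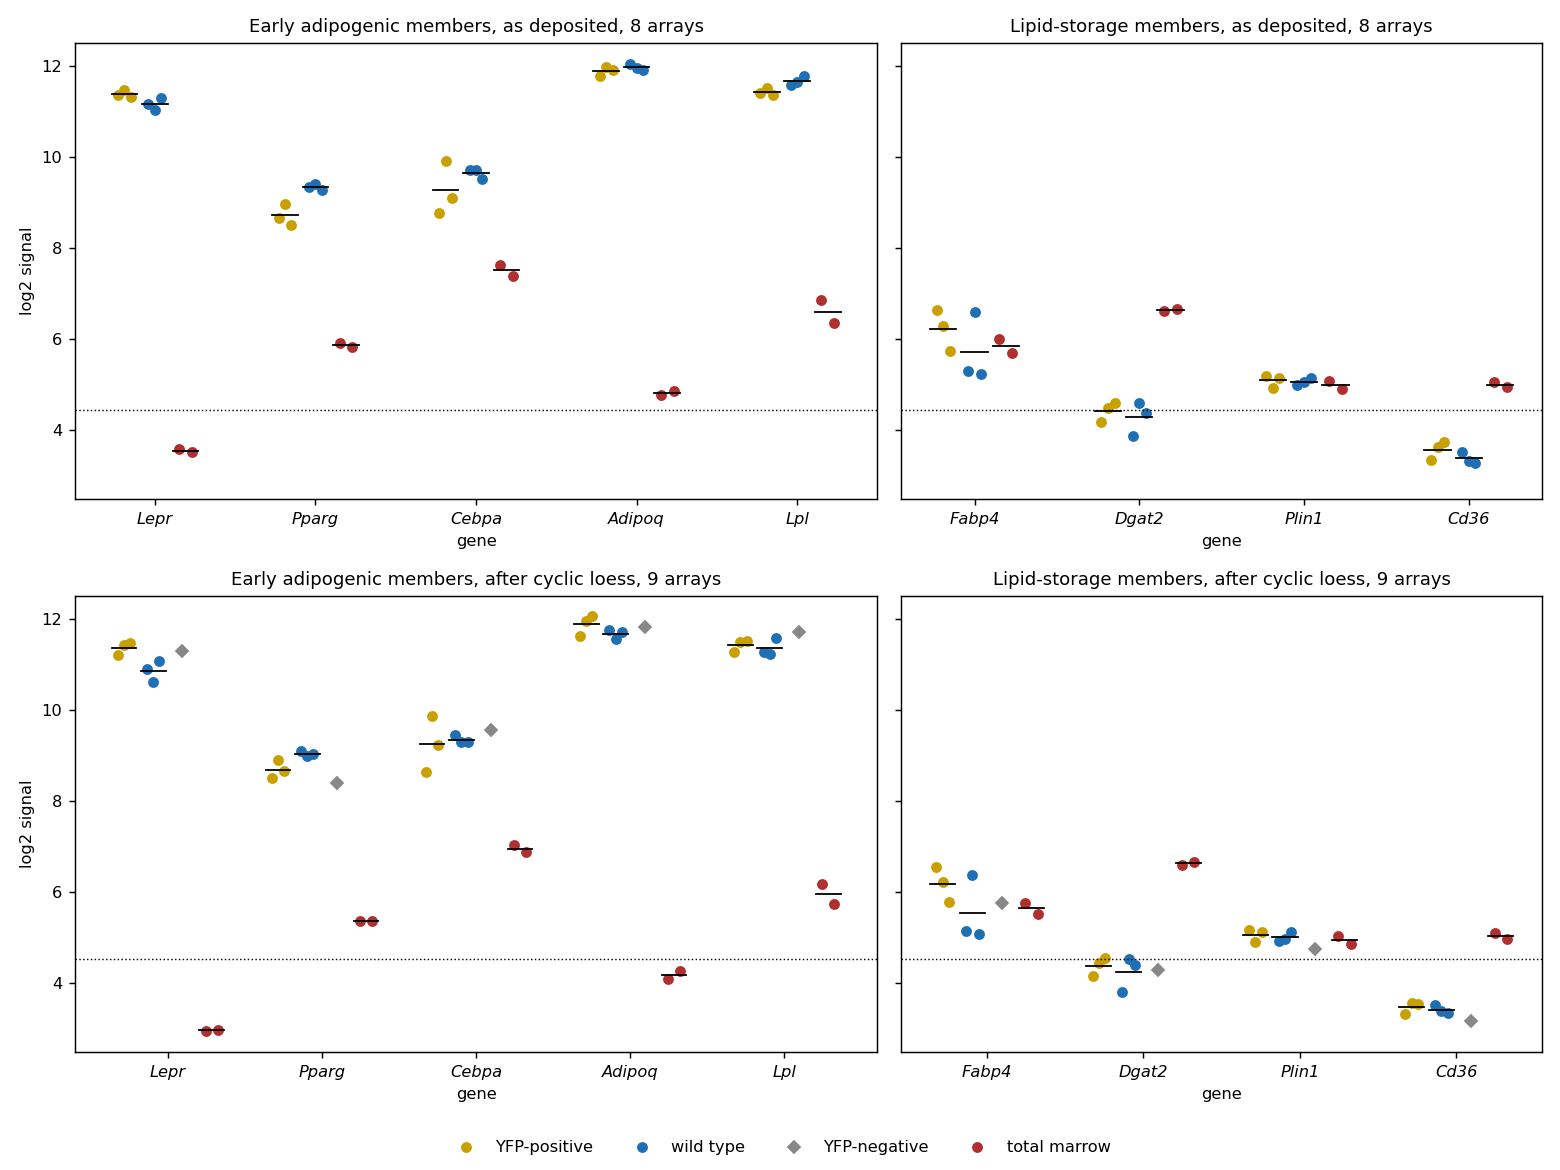
Log2 signal of the 9 genes on every array (y axis, points), with early adipogenic genes on the left and lipid-storage genes on the right; black bars are group means and the dotted line is the median of all values. The upper panels give 8 arrays as deposited (median 4.43) and the lower panels all 9 arrays after cyclic loess normalization (median 4.53). All sorted arrays stand above both total marrow arrays for the 5 early genes and below them for Dgat2 and Cd36.

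All signals below are log2 values of the arrays as deposited, unless cyclic loess is named. A gene was called when limma's moderated test, adjusted by Benjamini-Hochberg over 21789 rows, gave an adjusted p under 0.05. The YFP-negative array lay lower as a whole, with a median over these rows of 3.46 against 4.51 to 4.60 in the other 8 arrays. Its comparisons therefore used cyclic loess normalization of the 9 arrays, and its spread was assumed to equal that of the other groups. With 1 array, batch and group cannot be told apart there. The gate genes Icam1 (CD54) and Enpep (BP1) and the Il7 gene were called higher, and Ptprc (CD45) lower, in both replicated sorted groups than in total marrow. In these bulk samples, fewer cells of a type and less RNA per cell cannot be told apart.

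Among the early genes, all 5 were called higher in the YFP-positive sorts than in unsorted marrow, where 11.0% of all rows were called higher. All 5 were also higher in wild-type cells, against 10.4% of all rows. Their median change was 4.84 in the YFP-positive sorts and 5.07 in the wild-type sorts, while the median over all rows was 0.09 and 0.0001. The sorted groups share the same 2 total marrow arrays as their control.

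Lepr, the receptor for the fat hormone leptin, showed the largest change of the 9 genes against total marrow. Its signal was 11.36, 11.47 and 11.32 on the YFP-positive arrays, 11.17, 11.04 and 11.30 on the wild-type arrays, and 3.57 and 3.51 in total marrow. Every sorted array was thus far above both marrow arrays. The change was 7.84 (SE 0.12, adjusted p = 5.19e-08) for YFP-positive cells and 7.63 (adjusted p = 4.96e-08) for wild-type cells. Lepr lay below the median of all values in total marrow, so these changes were read as lower bounds on that scale, though no detection limit was measured.

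The regulators changed less than Lepr. Pparg, the nuclear receptor that directs fat cell formation, measured 8.66, 8.97 and 8.52 in YFP-positive cells, 9.34, 9.40 and 9.28 in wild-type cells, and 5.91 and 5.81 in total marrow. No YFP-positive array reached the lowest wild-type array. Against total marrow Pparg was higher by 2.85 (7.23-fold, SE 0.15, adjusted p = 5.15e-06) in the YFP-positive sorts and by 3.48 (11.2-fold, adjusted p = 1.62e-06) in the wild-type sorts. Cebpa, the partner of Pparg, measured 8.78, 9.92 and 9.10 in YFP-positive cells, 9.71, 9.72 and 9.52 in wild-type cells, and 7.63 and 7.39 in total marrow. The YFP-positive arrays of Cebpa were spread (SD 0.59, n = 3) around the narrower wild-type range (SD 0.11, n = 3). Cebpa was higher than in total marrow by 1.75 (3.37-fold, SE 0.31, adjusted p = 0.00392) and 2.14 (4.40-fold, SE 0.31, adjusted p = 0.00143), respectively. Of all 5 early genes, Cebpa had the smallest change in both comparisons.

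The secreted products of the early group were near-uniform across sorted cells. Adipoq, which encodes adiponectin, measured 11.78, 11.98 and 11.91 in YFP-positive cells, 12.04, 11.97 and 11.92 in wild-type cells, and 4.76 and 4.86 in total marrow. The sorted groups overlapped, and both stood far from marrow. The change was 7.08 (135-fold, SE 0.11, adjusted p = 5.19e-08) for YFP-positive and 7.16 (144-fold) for wild-type cells. Lpl, the lipase that releases fatty acids from circulating lipoproteins, measured 11.41, 11.53 and 11.36 in YFP-positive cells, 11.58, 11.65 and 11.78 in wild-type cells, and 6.85 and 6.34 in total marrow. Each wild-type array of Lpl exceeded each YFP-positive array, by little against the distance to marrow. Lpl was higher than in total marrow by 4.84 (28.6-fold, SE 0.17, adjusted p = 5.86e-07) in the YFP-positive sorts and 5.07 (33.6-fold, adjusted p = 4.29e-07) in the wild-type sorts.

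**Figure D2:**
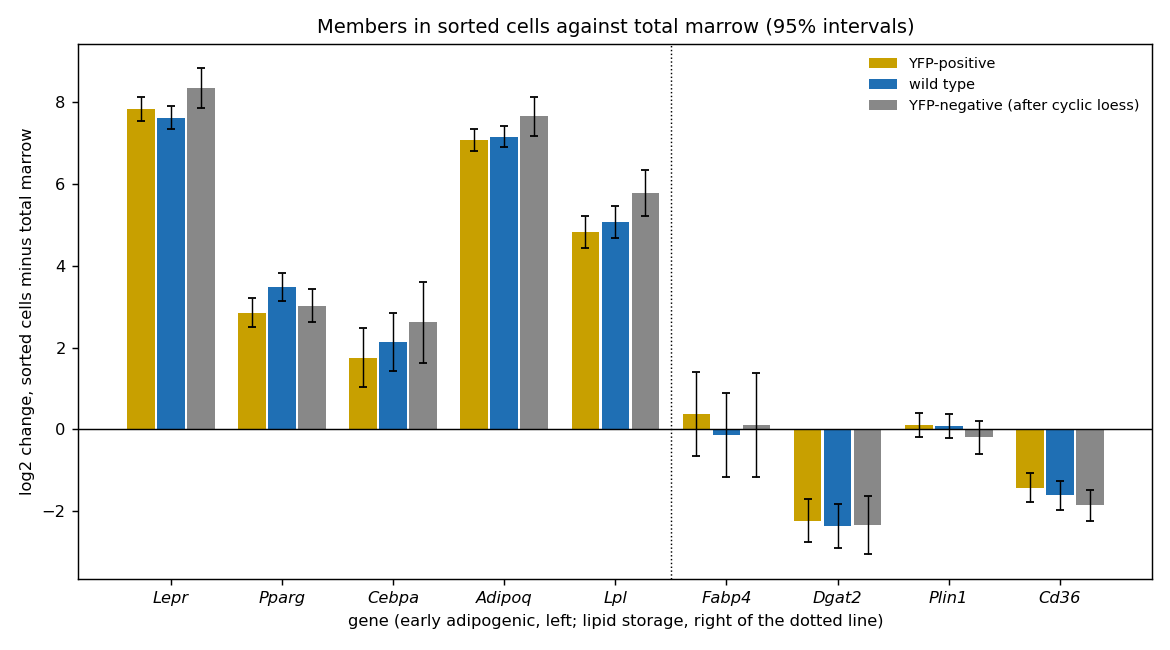
Log2 change against total marrow of each gene (y axis, with 95% confidence intervals from limma) in YFP-positive, wild-type and YFP-negative cells, the last after cyclic loess. The 5 early genes lie above 0, Dgat2 and Cd36 below it, and the intervals of Fabp4 and Plin1 include 0 in YFP-positive and wild-type cells.

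None of the 4 lipid-storage genes was higher in sorted cells than in total marrow. Of them, 2 were lower in YFP-positive cells, where 18.5% of all rows were called lower, and the same 2, Dgat2 and Cd36, were lower in wild-type cells, against 13.9% of rows. Their median change was −0.66 in the YFP-positive sorts and −0.87 in the wild-type sorts.

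Fabp4, a carrier of fatty acids in fat cells, macrophages and endothelium, measured 6.63, 6.29 and 5.73 in YFP-positive cells, 5.29, 6.60 and 5.24 in wild-type cells, and 5.99 and 5.69 in total marrow. All 3 groups overlapped, and 1 wild-type array stood above the other two. The change was 0.37 (95% interval −0.65 to 1.40, adjusted p = 0.546) in the YFP-positive sorts and −0.13 (−1.16 to 0.89, adjusted p = 0.905) in the wild-type sorts. Plin1, which coats the lipid droplet and controls access of lipases, measured 5.18, 4.93 and 5.14 in YFP-positive cells, 4.99, 5.06 and 5.13 in wild-type cells, and 5.08 and 4.90 in total marrow. The arrays of Plin1 lay within a narrow band with no separation of groups. Its change was 0.10 (−0.20 to 0.40, adjusted p = 0.583) and 0.07 (−0.22 to 0.37, adjusted p = 0.796), so that the upper bounds stood well under the changes of the 5 early genes.

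Dgat2, the enzyme of the last step of triglyceride synthesis, measured 4.16, 4.47 and 4.59 in YFP-positive cells, 3.86, 4.58 and 4.38 in wild-type cells, and 6.62 and 6.67 in total marrow. Cd36, a fatty acid transporter that macrophages, platelets and red cell precursors also carry, measured 3.33, 3.62 and 3.72 in YFP-positive cells, 3.52, 3.32 and 3.28 in wild-type cells, and 5.04 and 4.93 in total marrow. For both genes every sorted array was below both marrow arrays. Dgat2 fell by 2.23 (4.70-fold, SE 0.23, adjusted p = 0.000224) in the YFP-positive sorts and by 2.37 (5.17-fold, adjusted p = 0.000153) in the wild-type sorts. Cd36 fell by 1.43 (SE 0.15, adjusted p = 0.000279) and by 1.61 (adjusted p = 0.000136). The mean sorted signals of both genes lay below the median of all values, that of Dgat2 in YFP-positive cells only just (4.41 against 4.43). These falls were read as lower bounds on that scale, though no detection limit was measured.

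Blood cell markers moved in the same direction as Dgat2 and Cd36. Over all rows, 18.5% were called lower in the YFP-positive sorts and 13.9% in the wild-type sorts. Of 15 macrophage markers, 12 were lower in each of the replicated sorted groups, and the mean level of the list was 4.51 to 4.86 in YFP-positive, 4.31 to 4.46 in wild-type and 7.18 to 7.63 in total marrow arrays. Vcam1, which stromal cells also express and which the reticular stroma list holds too, was the 1 macrophage-list gene that was higher (3.14 and 3.27). All 10 erythroid markers were lower, with a mean level of 3.98 to 4.66 in sorted arrays against 7.52 to 7.77 in total marrow. Of 5 platelet and megakaryocyte markers 4 were lower in both, among them Pf4 by −4.77 and −5.02. Of 12 neutrophil markers, 10 were lower in the YFP-positive sorts and 11 in the wild-type sorts. The mean of the neutrophil list was 6.25, 5.65 and 4.17 on the YFP-positive arrays, 4.84, 4.02 and 3.84 on the wild-type arrays, and 11.64 and 11.59 in total marrow. The Fabp4 signal was also highest on the first YFP-positive array and lowest on the third within that group, but in wild-type cells it was highest on the second array. The 9 B lineage markers fell in 8 cases in both sorted groups, and the ninth, Ebf1, was higher (1.20 and 1.46). The part of these cells in the storage gene values was not tested.

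Endothelial cells also carry Fabp4 and Cd36. Of 15 endothelial markers, 3 were lower in both sorted groups (Pecam1, Erg and Cdh5), which is 20.0% against 18.5% and 13.9% of all rows. Ramp2 was higher (3.13 and 3.38), which is 6.67% of the list against 11.0% and 10.4% of all rows. These shares were near those of all rows. The mean of the list was 3.98 to 4.13 in YFP-positive, 3.85 to 3.97 in wild-type and 4.05 to 4.08 in total marrow arrays.

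In the YFP-negative array, after cyclic loess, the 9 genes stood as in the other sorted cells relative to total marrow. Again all 5 early genes were higher, where 13.0% of rows were called higher, and Dgat2 and Cd36 were lower, where 13.2% were called lower. Lepr measured 11.30 and exceeded total marrow by 8.35 (adjusted p = 8.06e-07). Adipoq at 11.82 was higher by 7.66, Lpl at 11.73 by 5.78, Pparg at 8.38 by 3.03 and Cebpa at 9.56 by 2.61 (adjusted p = 0.00342). On this scale Lepr and Adipoq lay below the median of all values in total marrow, and Dgat2 and Cd36 in the YFP-negative array. The changes of these genes were read as lower bounds, though no detection limit was measured. Dgat2 at 4.27 differed by −2.35 (adjusted p = 0.00115) and Cd36 at 3.17 by −1.86 (adjusted p = 0.000151). Fabp4 (5.74, change 0.11, adjusted p = 0.911) and Plin1 (4.74, change −0.20, adjusted p = 0.446) were not called.

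The sorted groups were then compared with each other. Wild-type cells were not sorted on a reporter and also differ in genotype. Only the single YFP-negative array therefore bears on whether the reporter separates cells by these genes. Between YFP-positive and wild-type cells, 0% of the 21789 rows were called by limma, and so none of the 9 genes. At an unadjusted p under 0.05, 14.9% of all rows and 1 of the 9 genes, Pparg, remained. It was lower in each YFP-positive array, with a difference of −0.63 (95% interval −0.94 to −0.31, adjusted p = 0.180). Lepr stood higher in each YFP-positive array (0.21, −0.04 to 0.47, adjusted p = 0.381) and Lpl lower (−0.24, −0.58 to 0.11, adjusted p = 0.450). These 3 genes had groups that did not overlap, although none passed the adjusted test. After cyclic loess Pparg and Lepr stayed apart, but Lpl overlapped. Its YFP-positive arrays then measured 11.27, 11.50 and 11.51, and its wild-type arrays 11.28, 11.24 and 11.58. The share of all rows without overlap was not counted, so these 3 genes cannot be set against a background. The differences of Adipoq (−0.09, −0.33 to 0.15), Plin1 (0.02, −0.24 to 0.29) and Cd36 (0.19, −0.13 to 0.50) had intervals that stayed within 1 log2 unit in both directions. So did that of Dgat2 (0.14, −0.34 to 0.61), whereas those of Cebpa (−0.38, −1.02 to 0.25) and Fabp4 (0.51, −0.41 to 1.43) did not.

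**Figure D3:**
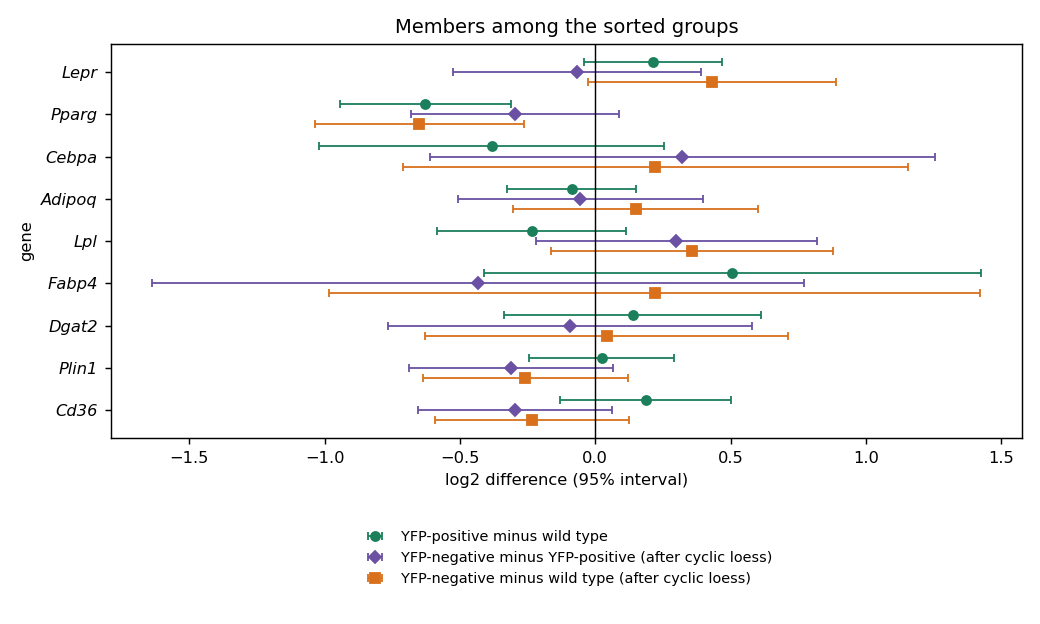
Log2 difference between sorted groups for the 9 genes (x axis, with 95% confidence intervals from limma): YFP-positive minus wild type as deposited, and YFP-negative minus each of them after cyclic loess. No gene was called. Pparg has intervals that leave out 0 in both comparisons with wild type.

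The YFP-negative array differed from YFP-positive cells in 3.98% of all rows and from wild-type cells in 4.56%, and none of the 9 genes was among them. Against YFP-positive cells, Lepr differed by −0.07, Adipoq by −0.06 and Pparg by −0.30 (adjusted p = 0.347). Against wild-type cells, Pparg was lower by −0.65 (−1.03 to −0.27) and was not called on this scale. The call depended on the setting. Pparg passed the adjusted test after quantile normalization (−0.74), a median shift (−0.76) or array weights (−0.65). It also passed without YFP-positive replicate 2 (−0.65), and as deposited (−1.84), where most rows were called lower. It did not pass under the remaining alternatives. Lepr was 0.43 above wild type (−0.03 to 0.89). On the loess scale, Pparg was thus ordered wild type (9.03), YFP-positive (8.68), YFP-negative (8.38) and total marrow (5.36), in which the neighbouring sorted groups did not differ by the adjusted test. For Lepr the order was YFP-positive (11.36), YFP-negative (11.30), wild type (10.86) and total marrow (2.95), with the same limit. For Cebpa, Adipoq and Lpl the sorted groups stood within 0.32, 0.20 and 0.36 of each other. For Dgat2, total marrow (6.63) stood above YFP-positive (4.37), YFP-negative (4.27) and wild-type cells (4.23). For Cd36 it was total marrow (5.03) above YFP-positive (3.46), wild-type (3.40) and YFP-negative cells (3.17).

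The wider adipogenic programme was read from gene lists, each set against the share of all rows called: 11.0% higher and 18.5% lower for YFP-positive cells, and 10.4% and 13.9% for wild-type cells. Of 25 other genes compiled as regulators of adipogenesis, 10 rose and 1 fell in the YFP-positive sorts (40.0% and 4%), and 12 and 1 in wild-type cells (48.0% and 4%). Their medians were 0.55 and 0.79. The largest rises were those of Ebf3, an early B cell factor (6.45 in both), and Zfp423, a zinc finger protein of preadipocytes (2.23 and 2.26). Ebf3 is also in the reticular stroma list, and Ebf1, another of these regulators, is also in the B lineage list. The Krüppel-like factor gene Klf9 rose by 2.14 and 2.24, whereas Klf5 fell by 2.06 and 2.19. Cebpb and Cebpd, which act before Pparg and Cebpa in the cascade, were not called in either group. A list of 16 genes compiled as inhibitors had 4 up and 3 down in the YFP-positive sorts (25% and 18.8%) and 5 and 3 in the wild-type sorts (31.2% and 18.8%). Its members do not all act as inhibitors, since Sfrp1, a secreted Wnt antagonist, and Klf4 and Id2 are also known to promote adipogenesis. Sfrp1 (4.36 and 5.46) and Hes1, a Notch target (2.31 and 2.15), rose. Klf4 (−3.65 and −3.15), Id2 (−3.09 and −2.08) and Gata2, an inhibitor of Pparg (−1.35 and −1.78), fell.

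Among the genes of storage beyond the 4 chosen ones, calls went both ways. Of 20 genes of lipid droplets and triglyceride synthesis, 2 rose and 3 fell in the YFP-positive sorts (10.0% and 15.0%), and 1 and 3 in wild-type cells (5% and 15.0%). Their median was 0.19 and 0.08, and these shares were near those of all rows. Dgat1, the second enzyme of the last step of triglyceride synthesis, fell by 1.88 and 1.68. The acyltransferase genes Agpat2 (−1.57 and −1.19) and Gpat3 (−1.20 and −1.33) also fell, while Agpat3 rose (1.39 and 1.74). Of 19 genes of fatty acid synthesis and uptake, 3 rose and 6 fell in the YFP-positive sorts (15.8% and 31.6%) and 2 and 5 in the wild-type sorts (10.5% and 26.3%). The calls of Elovl5 and Fabp3 in YFP-positive cells (adjusted p up to 0.0913 and 0.116) and of Acly in wild-type cells (up to 0.0515) were lost on rescaling. Over the 16 alternatives other than the filter on dim rows, 0 to 3 genes were called higher in either group, and 3 to 7 lower in YFP-positive and 2 to 7 in wild-type cells. The carrier gene Fabp5 fell by 2.30 and 2.39, and Scd1, a desaturase, fell by 2.14 in wild-type cells. The malic enzyme gene Me1 rose by 1.64 and 1.46. Of 11 lipolysis genes, 2 were higher and 4 lower in both groups (18.2% and 36.4%). Those lower included Mgll, the monoglyceride lipase (−3.27 and −3.10), and Pnpla2, the lipase that opens triglyceride breakdown (−1.94 and −1.98). Those higher were Aqp7, a glycerol channel (1.87 and 3.32), and Hcar1, the lactate receptor (1.61 and 2.23).

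**Figure D4:**
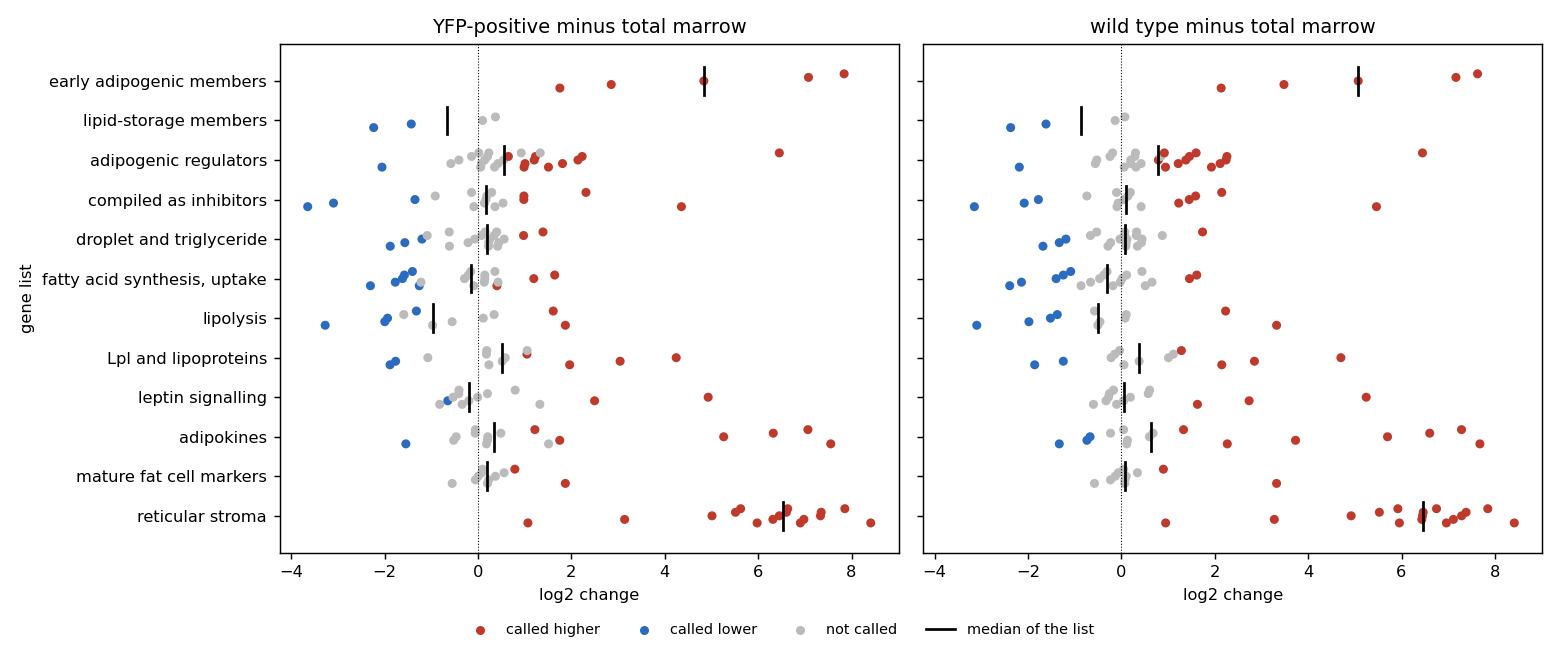
Log2 change against total marrow (x axis) of every measured gene of the 2 groups of chosen genes and of 10 further lists, with YFP-positive cells on the left and wild-type cells on the right; colours give the call and black bars the list medians. The early genes and the reticular stroma list lie to the right, while the droplet and mature fat cell lists have medians near 0.

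Of 11 markers of the mature fat cell, 2 were higher in both sorted groups (18.2%, against 11.0% and 10.4% of all rows) and none was lower. They were Aqp7 and the glucose transporter gene Slc2a4 (0.79 and 0.90). The list also holds Fabp4 and Plin1, and the lipolysis list holds Aqp7 too. Cidea lay below the median of all values, at 3.20 in the YFP-positive sorts and 3.23 in the wild-type sorts. So did Cidec (3.60 and 3.45) and Lep (3.44 and 3.29). Of the same list, Fabp4 (6.21 and 5.71), Aqp7 (5.77 and 7.22), Plin1 (5.08 and 5.06) and Slc2a4 (4.54 and 4.65) lay above that median. The mean of the list was 4.37 to 4.52 in YFP-positive, 4.40 to 4.50 in wild-type and 4.09 to 4.10 in total marrow arrays. Marrow reticular stroma markers were higher in all 16 of 16 cases in both groups, with medians of 6.53 and 6.46. Osteoblast markers were higher in 6 and 7 of 7 cases, with Ibsp, which both of these lists hold, at 7.33 and 7.38.

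Genes that act with Lepr and Lpl were read the same way. Of 13 genes of leptin signalling, 2 were higher and 1 lower in the YFP-positive sorts (15.4% and 7.69%) and 3 higher in the wild-type sorts (23.1%). Irs1, an insulin receptor substrate (4.93 and 5.24), and Socs3, the feedback inhibitor of leptin signalling (2.50 and 2.74), were higher in both. The lower call of Ptpn11 (−0.65) was lost on rescaling, with an adjusted p of up to 0.131. Of 13 genes of lipoprotein handling, 4 were higher and 2 lower in both groups (30.8% and 15.4%). The largest rises were those of Angptl4, a secreted inhibitor of Lpl (4.25 and 4.70), and the endocytic receptor gene Lrp1 (3.04 and 2.85). The cholesterol exporter gene Abcg1 (−1.88 and −1.86) and the HDL receptor gene Scarb1 (−1.76 and −1.24) were lower. Gpihbp1, the endothelial anchor of Lpl, was not called. Of 16 adipokines and their receptors, 6 were higher and 1 lower in the YFP-positive sorts (37.5% and 6.25%) and 7 and 3 in the wild-type sorts (43.8% and 18.8%). They included Chrdl1 (7.55 and 7.68), Esm1 (7.07 and 7.28), Agt, which encodes angiotensinogen (6.32 and 6.60), and Rarres2, which encodes chemerin (5.26 and 5.70). The adiponectin receptor gene Adipor1 fell by 1.54 and 1.33.

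Across the 8 arrays other than YFP-negative, the rows closest to Lepr after centring were Cyp1b1 (mean absolute difference 0.12), Serping1 (0.13), Chrdl1 (0.15), Tnc (0.18) and Gdpd2 (0.19). Those closest to Adipoq were Epas1, Mme, Cdh11 and Cxcl12, each at 0.10, and Gdpd2 at 0.12. In these rows too the sorted arrays were high and total marrow low. Cyp1b1, for instance, had mean signals of 11.65 in YFP-positive, 11.38 in wild-type and 3.74 in total marrow. The rows closest to Cd36 were Cit (0.06), Slc7a11 (0.07), Tbxas1 (0.07), Tbc1d10c (0.08) and Cd3e (0.08), which were low in sorted cells. These likenesses rest mainly on the step between sorted cells and total marrow, which 8 arrays of 3 groups share.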

How the data were processed

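The authors deposited log2 signals, 1 for each transcript cluster and array, which they made with Affymetrix Expression Console 1.3.1 and RMA, per the submitters' processing notes. Per the labels' protocols, the RNA of the small sorts was amplified before labelling, which can widen the spread of dim genes. Of 35556 rows, the 21789 with exactly 1 gene symbol were tested; 1621 with several genes and 12146 with none were left out. All 9 arrays entered 1 limma fit (limma 3.58.1, R 4.3.3; a mean per group, eBayes, 5 residual degrees of freedom), with two-sided tests and Benjamini-Hochberg adjustment over all rows tested. The fit was tested on simulated data. Arrays have no read depth, so their number limits the precision.

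The YFP-negative comparisons used cyclic loess of the 9 arrays, chosen because that array was known to lie below the others. The 9 genes, their split into early and storage genes, and the 17 further lists (240 genes, 220 measured) were chosen with earlier results of these data known. All 9 genes are named in every comparison, and of each list mainly the called genes with the largest changes in each direction; Cebpb, Cebpd, Lep, Cidea, Cidec and Gpihbp1 are named for their roles. A group mean below the median of all values (4.43, or 4.53 after cyclic loess) was treated as dim; this is a stated limit, not a measured detection limit. Same-numbered replicates did not deviate together (correlations of −0.08 to 0.06 across rows), so replicate numbers were not used as pairs. Alternatives were other normalizations, a filter on dim rows, all rows, other moderation, array weights, the replicate block, only the groups compared, and each replicate left out.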

Additional observations from a re-analysis of the deposited data

How the results depend on the processing

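Against total marrow, all 5 early genes stayed higher in YFP-positive, wild-type and YFP-negative cells under every alternative, and 7 of the 9 genes were called, except 6 with the filter on dim rows, which removes Cd36, and 8 for the YFP-negative array as deposited. The replicate block left these numbers at 7 against total marrow and 0 among sorted groups. As deposited, 7 of the 9 genes were called lower in the YFP-negative array than in either other sorted group. So were most rows, 16421 of 21789 against YFP-positive and 16280 against wild-type cells. These calls therefore do not set the 9 genes apart from all rows. YFP-negative against wild type gave 1 call (Pparg) after quantile normalization, a median shift or array weights, and 0 to 1 with replicates left out (Pparg without YFP-positive replicate 2, adjusted p = 0.0464 by limma). The remaining sign changes concern log2 differences that were not called on the scale reported, and their cause was not tested. For YFP-positive against wild type, Adipoq gave 0.013 (quantile) and 0.20 (cyclic loess), Lpl 0.057 (cyclic loess), and Plin1 −0.0090 (median shift) and −0.015 (array weights); with replicates left out, Plin1 ranged from −0.025 to 0.10 and Dgat2 from −0.071 to 0.29. For wild type against total marrow, Fabp4 gave 0.11 with the replicate block and −0.58 to 0.10 with replicates left out, and Plin1 −0.016 to 0.17. For YFP-negative against YFP-positive, a median shift gave Lepr 0.31 and Adipoq 0.44, the deposited values gave Cebpa −0.48 and Lpl −0.30, and the replicate block gave Lepr 0.0069, Adipoq 0.050 and Dgat2 0.17; Adipoq ranged from −0.18 to 0.035 with replicates left out. For YFP-negative against wild type, quantile normalization gave Adipoq −0.094 and Dgat2 −0.28, and a median shift gave Fabp4 −0.13, Dgat2 −0.11 and Cd36 0.041. The deposited values gave Lepr −0.585, Cebpa −0.87, Adipoq −0.76, Lpl −0.53, Fabp4 −1.21 and Dgat2 −1.19, of which Lepr, Adipoq, Lpl and Dgat2 were called lower there (adjusted p of 0.0116, 0.00365, 0.0496 and 0.00869 by limma), and with replicates left out Fabp4 ranged from −0.0029 to 0.64 and Dgat2 from −0.18 to 0.18. For YFP-negative against total marrow, Fabp4 gave −0.25 (median shift), −1.34 (as deposited) and −0.0075 to 0.23 with replicates left out. As deposited, the median change of all rows was −0.91, −0.88 and −0.85 for the YFP-negative array against YFP-positive, wild type and total marrow.

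The number of all rows called moved more. It went from 6422 to 3636 and 4179 without total marrow replicate 1 or 2 for YFP-positive, and from 5291 to 3398 without replicate 1 for wild type. Between YFP-positive and wild type it went from 0 to 26 without YFP-positive replicate 1 and 9 with trend and robust moderation. For YFP-negative against YFP-positive it went from 867 to 1683 (quantile), 2512 (median shift), 16522 (deposited), 418 (filter) and 5 (replicate block), to 244 without either total marrow replicate, and to 539 and 417 without wild-type replicate 1 or 2. Against wild type it went from 994 to 1720, 4458, 16353, 451 and 6, to 2091 with array weights, to 1722 without YFP-positive replicate 3, and to between 185 and 358 without any one wild-type or total marrow replicate. Against total marrow it went from 5719 to 8987 (median shift) and 15666 (deposited), and the split into higher and lower from 2839 and 2880 to 5385 and 3602 under the median shift. As deposited, lower calls made up 16421, 16280 and 14784 of the calls of the YFP-negative array against YFP-positive, wild type and total marrow.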

Other observations

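Of the listed genes outside the 9, few were called between the YFP-negative array and the other sorted cells, on the scale after cyclic loess, and none of those named here kept its call with the replicate block (adjusted p of 0.0838 to 0.158 by limma). Of 25 genes compiled as regulators of adipogenesis, 1 was called lower than in YFP-positive cells and 3 lower than in wild-type cells. Of all rows, 3.98% and 4.56% were called in either direction, so the first share is that of the background. Stat5b, a signal transducer of cytokine receptors, differed by −1.67 and −1.56. The zinc finger gene Zfp467 differed by −1.26 from wild-type cells, and Ppara by −0.61, a call that was also lost on rescaling (adjusted p up to 0.114 by limma). Of the 16 genes compiled as inhibitors, 1 was called in each comparison: Nr2f2, an orphan nuclear receptor, at 1.31 against YFP-positive cells, and Gata2 at 1.33 against wild-type cells. Among 16 adipokines and receptors, Nampt differed by 1.34 from wild-type cells. No gene of the droplet, fatty acid, lipolysis or lipoprotein lists was called by limma after cyclic loess. After quantile normalization or a median shift, the fatty acid list had 1 to 4 higher and 1 to 2 lower calls against wild-type cells and up to 1 each way against YFP-positive cells, and against wild-type cells the lipolysis list had 0 to 1 higher and 1 to 2 lower calls and the droplet list 0 to 1 lower. At an unadjusted p under 0.05, the fatty acid list had 7 of 19 genes (36.8%, against 21.9% of all rows) in the comparison with YFP-positive cells. In that with wild-type cells it had 6 of 19 (31.6%, against 22.3%). The shares of the droplet and lipoprotein lists stood below those of all rows in both comparisons. The share of the lipolysis list stood below that of all rows against YFP-positive cells and near it against wild-type cells. The shares of the regulator and inhibitor lists also stood above those of all rows in both comparisons, and that of the adipokine list was near them. Against YFP-positive cells the median changes of these lists were −0.14, 0.20 and 0.09. Against wild-type cells they were −0.09, −0.02 and −0.08.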
